A study of Homo sapiens with 8 samples.

Results

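The response of A549 cells to TNF and TGFβ was compared between spheroids and monolayers, gene by gene. A549 is an established human lung adenocarcinoma line. The 8 arrays comprise all 8 samples of the series, and a response is the treated minus the control level on the log2 scale. Culture dependence is the response in spheroids (3D) minus the response in monolayers (2D), here called the interaction. All 54613 probe sets other than the Affymetrix controls entered the test, and 19775 genes were measured. Each of 4 groups had 2 arrays, and no group carries a genetic change. The 2D control and 3D control cultures received vehicle, and the 2D treated and 3D treated cultures received 2 rounds, each of 48 h, of TNF (10 ng/ml) together with TGFβ (2 ng/ml). Spheroids formed from hanging droplets and were then held on plates to which cells do not attach. All cultures are of 1 line. The pairs are technical duplicates by the methods but biological replicates by the deposited design, so p-values may measure technical spread alone.

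TNF binds receptors that release NF-κB and activate the JNK and p38 kinases, which feed the AP-1 factors. TGFβ binds a pair of receptor kinases that phosphorylate SMAD proteins, and it is the best known inducer of the epithelial-mesenchymal transition (EMT) in lung epithelium. EMT is the change in which epithelial cells loosen their junctions, take up mesenchymal proteins and secrete enzymes that cut the matrix. The comparison asks how far this response depends on whether the cells grow as a sheet on plastic or as a ball of cells in suspension.

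The array medians lay between 2.43 and 2.5 on the log2 scale, and the lowest value was 2.23. A group was taken as near background when both of its arrays were below their medians. The 3′ minus 5′ signal of GAPDH lay between −0.12 and −0.03, and that of ACTB between 0.98 and 1.46, with the 3D treated arrays at 1.04 and 1.17. All 7 genes listed as typical of A549, such as KRT8, ALDH1A1 and NQO1, were above background in every group. Their summed log2 levels were 99.6 to 103.0 elsewhere and 92.9 and 93.3 in treated spheroids. Of these genes 2, NQO1 and AKR1B10, were called more negative (28.6%, beside 3.26% of all genes). No marker on the leukocyte, endothelial, neural and muscle or erythroid lists was called in the interaction, which called 3.26% of all genes. At that share lists this short may hold no call. Of the leukocyte markers, 3 or 4 of 12 were above background in each group (CD14, LYZ and ITGAM, with CD4 in 2D treated cultures), and their summed level was 37.5 and 38.1 in 3D treated cultures and 39.3 to 43.0 elsewhere. In every group 5 of 9 neural and muscle markers (NEFL, RBFOX3, MBP, DES and MYOD1) were above background. So were 2 of 9 endothelial (PECAM1 and CLDN5) and 2 of 3 erythroid markers (HBB and AHSP). The part of these levels in the results was not tested.

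The cytokines changed far more genes past the threshold in spheroids than in monolayers. With limma and Benjamini-Hochberg adjustment, 1094 genes rose in 3D (5.53% of 19775) and 2141 fell (10.8%), whereas 24 rose in 2D (0.121%) and 15 fell (0.0759%). Without 3D treated replicate 1 the 3D numbers were 1892 up and 1823 down, and without replicate 2 they were 1666 and 1283, so the majority turned. At an unadjusted p under 0.05 the numbers were 6170 genes in 3D and 2124 in 2D. The interaction, which tests the difference itself, was called for 645 genes (3.26%). Of these, 261 responded more positively in 3D (1.32%) and 384 more negatively (1.94%). Genes with a more positive 3D response had a median interaction of 1.54, and 100 of the 261 reached 2 on the log2 scale. Those with a more negative response had a median of −1.01, and 41 of 384 reached that size in the other direction. In 265 of the 645 the interaction was smaller than 1, and in 14 smaller than 0.1. Without 3D treated replicate 1 or replicate 2 the count was 2262 or 1737 genes, with 61.8% or 69.9% of calls more positive instead of 40.5%, so more positive calls then outnumbered more negative ones. Without 2D control replicate 2 the share was 57.3% of 632. Without 3D control replicate 1 or replicate 2 it was 22.8% or 22.5%. Centring the arrays on their medians gave 1429 calls with 29.4% more positive.

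**Figure D1:**
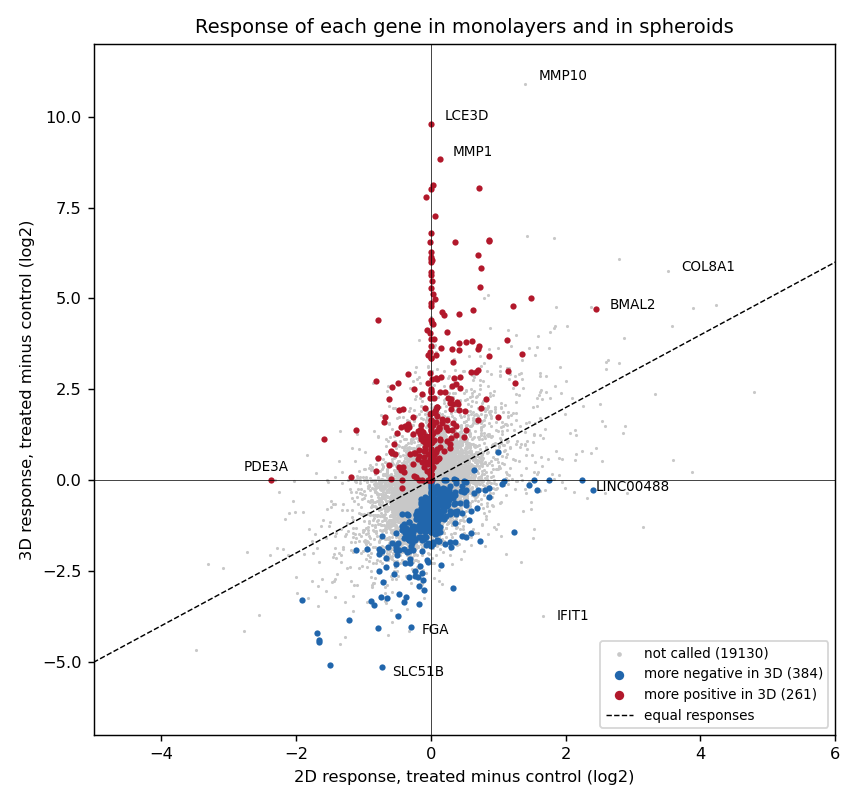
Response of each of 19775 genes in monolayers (x axis) and spheroids (y axis), as treated minus control means on the log2 scale. Red marks the 261 genes with a more positive and blue the 384 with a more negative 3D response. Most coloured points lie close to 0 on the x axis, and the dashed line marks equal responses.

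Most called genes moved in spheroids alone as far as the tests reached. Of the 261 more positive genes, 242 rose in 3D and did not pass in 2D. Of the 384 more negative ones, 353 fell in 3D and did not pass in 2D. The 3D response was the larger in size for 595 of 645. Their median 2D response was 0.00 in the more positive genes and −0.01 in the more negative ones, beside median 3D responses of 1.51 and −0.98. Near background levels entered many calls: 54 of the 261 more positive genes were near background in both 2D groups, against 12 of the 384 more negative ones, and 16 genes were so in all 4 groups. In 126 called genes the arrays of at least 1 group had identical values, and in 65 called genes 3 or 4 groups were near background. Where the arrays of 3 groups agree that closely, most of the spread comes from the remaining group. The test still counted 4 residual degrees of freedom, so p-values of such genes may be too small.

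Across the 12657 genes that exceeded the median of 2 or more arrays, both responses were related but spheroid responses were wider. The correlation was r = 0.431 across genes, which are not independent replicates, with a slope of 0.976 for the 3D on the 2D response. The SD of responses was 0.907 in 3D and 0.401 in 2D, and 61.2% of these genes had the same sign in both. Genes that rose in 3D had a median 2D response of 0.13 beside 1.16 in 3D, and 770 of 1094 lay above 0 in 2D. Genes that fell in 3D had a median of −0.14 in 2D beside −0.94, and 1613 of 2141 lay below 0. Among the 24 genes that rose in 2D, 15 also rose in 3D, with medians of 0.90 in 2D and 0.65 in 3D. A gene absent from the 2D calls is therefore not shown to be unresponsive there.

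The promoters of called genes were read for the letters that the pathways' factors bind. RefSeq promoters (GRCh38.p14, from 250 bases before to 50 after the start site) matched 15384 of the 19775 genes by symbol. The AP-1 letters TGANTCA, on either strand, stood in 18 of 197 promoters of more positive genes (9.14%), 15 of 322 of more negative genes (4.66%) and 898 of all 15384 (5.84%). The NF-κB motif, on either strand, stood in 11.7%, 4.97% and 6.47% of the same sets, that is in 23, 16 and 995 promoters. For the other motifs the shares in more positive, more negative and all genes were 13.2%, 11.8% and 11.9% for TEAD (GGAATG), 22.8%, 22.0% and 19.6% for the E-box CAGGTG, 18.3%, 30.4% and 24.1% for the hypoxia letters ACGTG, and 13.7%, 13.4% and 14.8% for the NRF2 letters TGACNNNGC. The SMAD palindrome GTCTAGAC was in 0 called promoters and 19 of all. Motifs can overlap each other, and a match describes letters alone. Shown here, with matches in capitals, are 4 promoters of secreted or signalling genes whose response was more positive in 3D. FST (chr5:53480379-53480678, plus strand) holds an AP-1 match 160 bases and an NF-κB match 47 bases before the start site. IL11 (chr19:55370414-55370713, minus strand) holds an AP-1 match 96 bases before it, FAS (chr10:88990548-88990847, plus strand) an AP-1 match at 242 bases and NFKBIZ (chr3:101827740-101828039, plus strand) an NF-κB match at 223 bases.
FST: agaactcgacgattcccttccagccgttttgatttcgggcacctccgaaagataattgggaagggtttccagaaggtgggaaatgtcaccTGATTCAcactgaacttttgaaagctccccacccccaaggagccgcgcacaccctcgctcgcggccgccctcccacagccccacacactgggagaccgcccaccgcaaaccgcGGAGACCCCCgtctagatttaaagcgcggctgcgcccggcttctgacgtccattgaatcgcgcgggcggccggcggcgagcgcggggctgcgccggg
IL11: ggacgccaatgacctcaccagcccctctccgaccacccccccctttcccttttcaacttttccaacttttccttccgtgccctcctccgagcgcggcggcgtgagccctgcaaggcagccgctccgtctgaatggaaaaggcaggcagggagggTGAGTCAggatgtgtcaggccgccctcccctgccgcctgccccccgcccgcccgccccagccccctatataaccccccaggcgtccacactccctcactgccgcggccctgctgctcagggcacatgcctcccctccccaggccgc
FAS: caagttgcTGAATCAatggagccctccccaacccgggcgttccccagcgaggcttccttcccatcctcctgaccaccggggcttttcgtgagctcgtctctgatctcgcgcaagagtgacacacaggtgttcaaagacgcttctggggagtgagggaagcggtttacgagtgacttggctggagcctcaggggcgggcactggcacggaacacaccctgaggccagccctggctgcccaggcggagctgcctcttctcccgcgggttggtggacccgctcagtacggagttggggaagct
NFKBIZ: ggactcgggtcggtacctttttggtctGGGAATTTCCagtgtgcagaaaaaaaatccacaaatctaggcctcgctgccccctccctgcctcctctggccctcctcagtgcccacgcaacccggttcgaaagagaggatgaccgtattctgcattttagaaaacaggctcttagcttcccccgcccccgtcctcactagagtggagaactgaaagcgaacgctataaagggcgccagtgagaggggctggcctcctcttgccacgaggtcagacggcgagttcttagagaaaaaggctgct

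Secreted matrix enzymes were among the genes with the widest differences between the cultures. Of 27 measured matrix proteases and inhibitors, 7 responded more positively in 3D, 1 more negatively and 19 did not pass. The share called was 29.6%, beside 3.26% of all genes, and the median interaction was 1.03 beside 0.00 over all genes. MMP1, the interstitial collagenase, read 2.56 and 2.52 in 2D control, 2.75 and 2.58 in 2D treated, 4.89 and 4.91 in 3D control, and 14.09 and 13.36 in 3D treated cultures. The treated spheroids stood apart from every other array. The interaction was 8.70 ± 0.36 (SE, n = 2 per group, adjusted p = 0.00539), an estimated 415-fold larger response. The 2D arrays of MMP1 lay just above their array medians, so a small 2D response could be missed and the ratio is uncertain. MMP9, a gelatinase, read 2.26 to 2.95 on the 6 other arrays and 11.45 and 10.48 in treated spheroids (interaction 8.09 ± 0.49, adjusted p = 0.0111). MMP3, MMP12 and TIMP3 were near background in the 3 other groups, and in treated spheroids MMP3 (stromelysin) rose at least 67.9-fold, MMP12 (macrophage elastase) at least 34.2-fold and TIMP3, an inhibitor of these enzymes, at least 51.0-fold. These folds are bounds against the array medians of the 3D control. PLAU, the urokinase that activates plasminogen, rose from 8.69 and 8.58 to 12.27 and 11.84 in 3D and read 10.02 and 10.13 against 10.92 and 10.97 in 2D (interaction 2.55 ± 0.22, adjusted p = 0.0233). SERPINE2, an inhibitor of urokinase and thrombin, had an interaction of 2.27 ± 0.29 (adjusted p = 0.0459). In the opposite direction, the membrane protease MMP24 fell in 3D from 6.44 and 6.41 to 5.77 and 5.55 and read 6.44 and 6.44 against 7.12 and 7.13 in 2D (interaction −1.45 ± 0.11, adjusted p = 0.0165). MMP10, another stromelysin, reached 14.39 and 14.14 in treated spheroids, but its 2D treated arrays read 5.0 and 2.71, and its interaction of 9.50 did not pass (adjusted p = 0.052). Leaving out any 1 array kept the calls for MMP1, MMP9 and MMP24. TIMP3 missed the threshold without 2D treated replicate 1 (adjusted p = 0.0509). MMP3 and PLAU missed it without 2D control replicate 2, either 2D treated array or 3D control replicate 2 (0.053 to 0.0629), and MMP12 and SERPINE2 without any 1 of the 6 arrays other than the treated spheroids (0.0629 to 0.108). With values below 4 set to 4, MMP12 lay at 3.53 (adjusted p = 0.131). For genes near the floor elsewhere, leaving out a treated spheroid array removes most of the spread, so those omissions are a weak check.

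**Figure D2:**
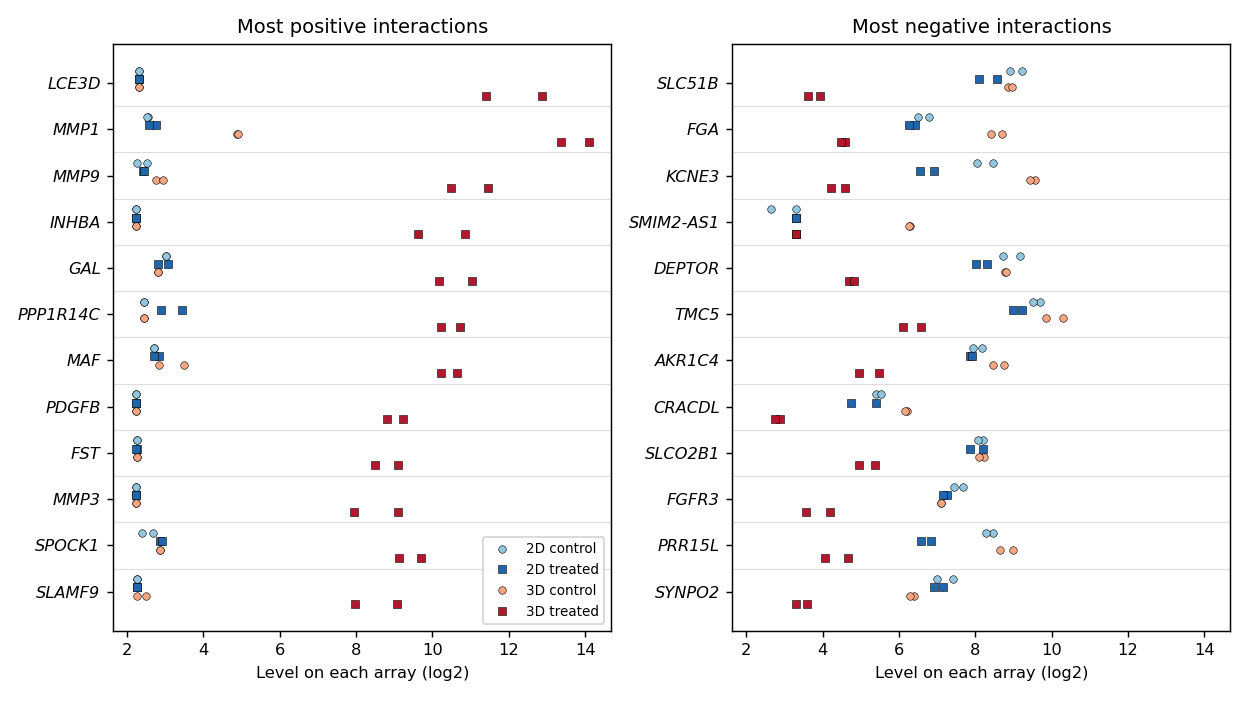
Level of the 12 genes with the most positive (left) and the 12 with the most negative (right) called interactions, as log2 values on each of the 8 arrays. Each point is 1 array, coloured by group. On the left the treated spheroids stand alone at the right of the axis, and on the right they are the lowest arrays for every gene except SMIM2-AS1.

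Of 14 members of the AP-1, ATF and MAF families measured, 3 were called (21.4%, beside 3.26% of all genes), all more positive in 3D. The median interaction was 0.98. JUN, the AP-1 subunit that JNK phosphorylates, rose from 9.70 and 9.79 to 12.70 and 12.74 in spheroids and read 8.57 and 8.45 against 9.29 and 8.92 in monolayers, so no group overlapped with another. Its interaction was 2.38 ± 0.19 (adjusted p = 0.0205). MAF, a large basic leucine zipper factor, read 2.70 to 3.48 on the other arrays and 10.65 and 10.22 in treated spheroids (interaction 7.21 ± 0.38, adjusted p = 0.00814). Its small partner MAFG had an interaction of 1.13 ± 0.12 (adjusted p = 0.0323). FOSL1, a relative of FOS, read 7.45 and 8.20 in treated spheroids and 4.44 to 5.30 elsewhere, and its interaction of 3.34 had an adjusted p of 0.0524. Among 35 immediate early genes and MAP kinase phosphatases, 5 were more positive and 1 more negative. The share called was 17.1%, beside 3.26% of all genes, and the median was 0.75. KLF6, a zinc finger factor induced by growth signals, rose from 9.45 and 9.59 to 11.94 and 12.21 in 3D and read 9.34 and 9.69 against 8.90 and 8.98 in 2D (interaction 3.13 ± 0.22, adjusted p = 0.0153). The Notch target HES1 had an interaction of 2.42 ± 0.21, the receptor kinase inhibitor SPRY2 1.78 ± 0.22, KLF7 1.55 ± 0.20 and IER2 1.04 ± 0.07. KLF5, a factor of proliferating epithelium, fell in 3D, with an interaction of −1.02 ± 0.07 (adjusted p = 0.0135). ZFP36, which degrades cytokine mRNAs, had an interaction of 2.54, GADD45B 3.23 and DUSP10 2.41, with adjusted p of 0.0604 to 0.0672. MYC and KLF4 lay at −0.47 and 0.28 (adjusted p = 0.751 for each). The calls for JUN, MAF, KLF6, KLF5 and IER2 held without any 1 array. HES1 missed the threshold without either 2D treated array (adjusted p = 0.0591 and 0.0565), MAFG without any 1 of the 2D arrays (0.051 to 0.0763), SPRY2 without either control array of either culture or 2D treated replicate 2 (0.0565 to 0.107) and KLF7 without any 1 array except 2D control replicate 1 (0.056 to 0.106). With the probe set of largest interaction the values were 3.68 for JUN and 4.90 for KLF7, and MAF lay at 1.29 where probe sets with identical values in a group were left out.

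Of 11 EMT transcription factors, which repress epithelial genes, 4 were called, all more positive in 3D, and 7 did not pass. The share called was 36.4%, beside 3.26% of all genes. The median was 0.07, and 0.30 without 2D treated replicate 1. SNAI2 (Slug) read 2.45 to 2.53 on the 2D arrays, 4.39 and 4.82 in control spheroids and 9.15 and 8.18 in treated spheroids, with an interaction of 4.07 ± 0.51 (adjusted p = 0.0453). ZEB2 read 2.35 to 2.71 except in treated spheroids, where it reached 6.73 and 6.19, at least 16.3-fold above control spheroids (interaction 3.83 ± 0.26, adjusted p = 0.014). ZEB1 rose from 8.28 and 8.27 to 9.69 and 9.65 in 3D and read 8.37 and 8.56 against 8.71 and 8.84 in 2D (interaction 1.08 ± 0.11, adjusted p = 0.0323). PRRX1 was called at 0.07 but was near background in all 4 groups, at 2.25 to 2.34, and at 0.00 when arrays were centred on their medians. TWIST1 had an interaction of 0.06 and SNAI1 of 0.46 (adjusted p = 1.0 and 0.608). Of 30 junction and polarity genes, 1 was more negative (3.33%, beside 3.26% of all genes). This gene, OCLN, a tight junction protein, fell from 8.73 and 8.78 to 7.44 and 7.35 in 3D and read 8.88 and 8.76 against 8.54 and 8.57 in 2D (interaction −1.10 ± 0.08, adjusted p = 0.0145). CDH1 (E-cadherin) read 12.83 and 12.69 against 11.71 and 11.99 in 3D and 12.94 and 12.95 against 12.98 and 13 in 2D, and its interaction of −0.95 did not pass (adjusted p = 0.0681). None of 23 mesenchymal markers passed with limma, and 7 had an unadjusted p under 0.05 (30.4%, beside 22.0% of all genes). Vimentin (VIM) lay at 0.24 and fibronectin (FN1) at 0.29 (adjusted p = 0.444 and 0.522). Among 12 keratins, KRT80 and KRT15 were called (16.7%, beside 3.26% of all genes), at 1.22 and 1.27. KRT15 did not pass in either culture alone: it read 7.17 and 7.21 against 6.05 and 5.96 in 2D and 8.39 and 8.36 against 8.31 and 8.62 in 3D. ZEB2 and OCLN were called without any 1 array, although ZEB2 lay at 2.46 (adjusted p = 0.0615) when values below 4 were set to 4. ZEB1 missed the threshold without either 2D treated or either 3D control array (0.0508 to 0.075), and SNAI2, PRRX1, KRT80 and KRT15 missed it without any 1 of the 6 arrays other than the treated spheroids (0.0567 to 0.112).

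Of 27 collagen chains, 1 was called (3.7%, beside 3.26% of all genes) and 19 lay above 0, with a median of 0.41 that was 0.74 without 2D control replicate 2. The called one was COL15A1, a basement membrane collagen, near background in 3 groups and at 6.38 and 5.5 in treated spheroids, a rise of at least 11.4-fold (interaction 3.71 ± 0.42, adjusted p = 0.0381). COL8A1, a short chain collagen, responded in both cultures, from 7.14 and 6.70 to 10.78 and 10.10 in 2D and from 6.30 and 5.73 to 12.02 and 11.55 in 3D, and its interaction of 2.25 had an adjusted p of 0.14. COL7A1, the anchoring fibril collagen, had an interaction of 2.5 (adjusted p = 0.0786), and a second probe set of it was called at 2.92 (adjusted p = 0.0444). For COL1A1 the brightest probe set lay at 0.34 (adjusted p = 0.751), whereas another, also above the median on all 8 arrays, was called at 4.44 (adjusted p = 0.0368), so its culture dependence differs with the probe set. Of 35 matrix glycoproteins and proteoglycans, 3 were called (8.57%, beside 3.26% of all genes). SPOCK1, a secreted proteoglycan, read 2.40 to 2.92 except in treated spheroids, at 9.70 and 9.13 (interaction 6.21 ± 0.31, adjusted p = 0.00761). The membrane proteoglycan SDC4 rose in 3D and had an interaction of 1.87 ± 0.24, and LTBP3, which holds latent TGFβ in the matrix, 0.78 ± 0.10. None of 14 integrins passed with limma, although 11 lay above 0 and the median was 0.73 (0.48 without 2D treated replicate 2). Of them 5 had an unadjusted p under 0.05 (35.7%, beside 22.0% of all genes). The actin linker PALLD crossed over between cultures: it was lower in control spheroids (10.11 and 10.06 against 10.51 and 10.67) and higher in treated ones (11.56 and 11.41 against 10.66 and 10.77), with an interaction of 1.28 ± 0.12. Among 20 targets of YAP and TEAD, AMOTL2 and F3 (tissue factor) were called at 0.84 ± 0.10 and 3.36 ± 0.39. The share called was 10.0%, beside 3.26% of all genes. SPOCK1 was called without any 1 array. COL15A1, LTBP3 and F3 missed the threshold without any 1 of the 6 arrays other than the treated spheroids (adjusted p = 0.0535 to 0.119), SDC4 without any control or any 3D array (0.0585 to 0.11), PALLD without 2D treated replicate 1 or either 3D control array (0.0532 to 0.0627) and AMOTL2 without replicate 2 of any group or 3D control replicate 1 (0.0565 to 0.0945). With values below 4 set to 4, COL15A1 lay at 1.94 (adjusted p = 0.174).

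**Figure D3:**
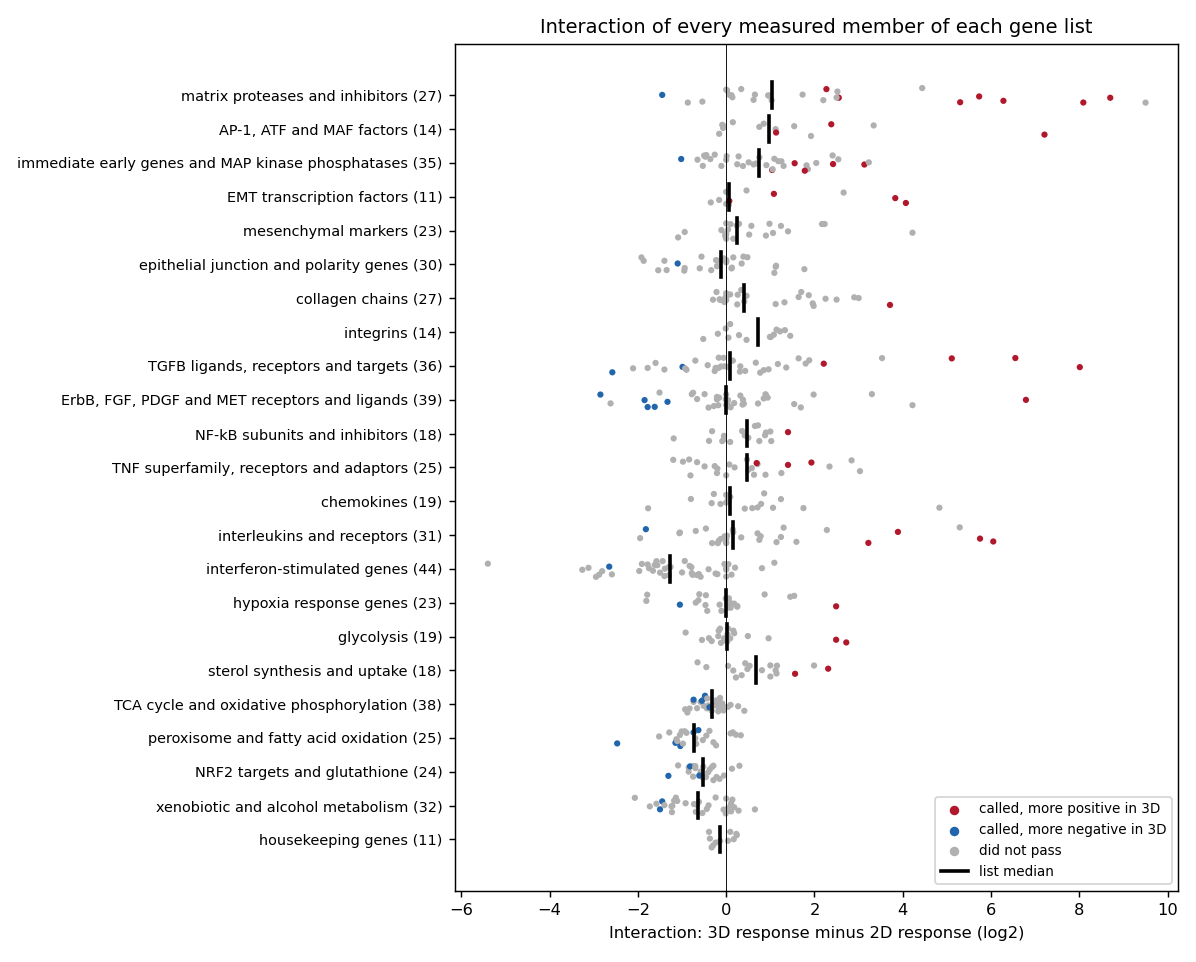
Interaction on the log2 scale (x axis) of every measured member of 23 gene lists, with the number of members in brackets. Each point is 1 gene, red or blue where called and grey where it did not pass, and the bar is the list median. Medians run from −1.28 for interferon-stimulated genes to 1.03 for matrix proteases and inhibitors.

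Ligands and modulators of the TGFβ superfamily differed in both directions. Of 36 measured members, 4 were more positive in 3D and 2 more negative (16.7% called, beside 3.26% of all genes). The median of 0.09 moved between 0.04 without 2D treated replicate 1 and 0.16 without 3D treated replicate 2. INHBA, which encodes the subunit of activin A, was near background in 3 groups and read 10.86 and 9.63 in treated spheroids, at least 224-fold above control spheroids (interaction 8.01 ± 0.59, adjusted p = 0.0157). FST (follistatin), which binds and blocks activin, followed the same pattern at 9.09 and 8.50, at least 82.1-fold up (interaction 6.55 ± 0.28, adjusted p = 0.00567). BMP6 read 2.94 to 4.00 elsewhere and 8.99 and 8.85 in treated spheroids (interaction 5.11 ± 0.33, adjusted p = 0.0129). TGFBR1, the type I receptor kinase, rose from 10.38 and 10.23 to 12.68 and 12.43 in 3D while its 2D arrays read 10.25 to 10.46 (interaction 2.21 ± 0.17, adjusted p = 0.018). INHBB, the subunit of activin B, went the other way and fell from 9.82 and 9.78 to 6.87 and 6.25 in 3D and read 11.28 and 11.12 against 10.60 and 10.48 in 2D (interaction −2.58 ± 0.32, adjusted p = 0.0439). The ligand TGFB2 had an interaction of −0.99 ± 0.10 (adjusted p = 0.0341) without passing in either culture, at −0.35 in 3D and 0.63 in 2D. SKIL, a SMAD repressor, lay at 1.80 (adjusted p = 0.0839) by its brightest probe set, and 2 other probe sets above the median on all 8 arrays were called at 3.02 and 3.15 (adjusted p = 0.0487 and 0.00913). Among 39 growth factor receptors and ligands, 1 was more positive and 5 more negative (15.4% called, beside 3.26% of all genes). PDGFB, a mitogen for mesenchymal cells, was near background in 3 groups and read 9.24 and 8.81 in treated spheroids, at least 96.6-fold up (interaction 6.79 ± 0.21, adjusted p = 0.00245). The 5 others were FGFR3 at −2.85 ± 0.33, PDGFD at −1.85 ± 0.12, ERBB2 (HER2) at −1.78 ± 0.17, its partner ERBB3 at −1.62 ± 0.13 and the IGF carrier IGFBP1 at −1.33 ± 0.13. ERBB2 fell in 3D from 8.69 and 8.95 to 6.43 and 6.62, whereas in 2D it read 9.33 and 9.24 against 8.71 and 8.83. EGFR lay at 1.69 and did not pass (adjusted p = 0.117). The calls for INHBA, FST, BMP6, TGFBR1, PDGFB, PDGFD and ERBB3 held without any 1 array, although INHBA lay at 6.24 (adjusted p = 0.0512) with values below 4 set to 4. ERBB2 missed the threshold without any 1 of the 2D arrays (0.0507 to 0.0689), IGFBP1 without either 2D control array, 2D treated replicate 1 or 3D control replicate 2 (0.0608 to 0.0689), and INHBB, TGFB2 and FGFR3 without any 1 of the 6 arrays other than the treated spheroids (0.0539 to 0.109).

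Of 18 NF-κB subunits and inhibitors, 1 was called in the interaction (5.56%, beside 3.26% of all genes), and 9 had an unadjusted p under 0.05 (50%, beside 22.0%). Their median interaction was 0.46, and the median response was 1.0 in 3D and 0.53 in 2D. NFKBIZ, a nuclear co-factor of NF-κB, rose from 10.14 and 9.98 to 12.30 and 12.26 in 3D and read 10.25 and 10.18 against 11.10 and 10.97 in 2D (interaction 1.40 ± 0.10, adjusted p = 0.0155). TNFAIP3 (A20), which shuts off the pathway, read 10.87 and 10.68 against 12.51 and 12.45 in 2D and 9.99 and 10.18 against 12.69 and 12.35 in 3D, so the treated arrays of both cultures overlapped and its interaction of 0.72 did not pass (adjusted p = 0.202). A second probe set of TNFAIP3, above the median on all 8 arrays, was called at 1.18 (adjusted p = 0.0323). RELB lay at 0.50, NFKB2 at 0.42, NFKB1 at 1.02 and RELA at 1.0, with adjusted p of 0.14 to 0.5. CXCL8 (interleukin 8) lay at 0.71 (adjusted p = 0.165). None of 19 chemokines passed with limma, with 6 at an unadjusted p under 0.05 (31.6%, beside 22.0% of all genes). Among 25 members of the TNF superfamily and its adaptors, 3 receptors were more positive in 3D, in a comparison that called 3.26% of all genes. TNFRSF1B, the inducible TNF receptor, read 2.94 to 3.12 elsewhere and 5.05 and 5.04 in treated spheroids (interaction 1.93 ± 0.10, adjusted p = 0.00832). The death receptors FAS and TNFRSF10B had interactions of 1.40 ± 0.08 and 0.69 ± 0.05 (adjusted p = 0.00943 and 0.0138). TNFRSF10B rose in both cultures, from 11.45 and 11.44 to 11.89 and 11.99 in 2D and from 11.84 and 11.83 to 13 and 13.02 in 3D. Of 31 interleukins and receptors, 4 were more positive and 1 more negative (16.1% called, beside 3.26% of all genes). IL11, a cytokine of the IL6 family, was lower in control spheroids (3.11 and 3.11 against 5.57 and 5.95) and higher in treated ones (10.07 and 9.37 against 6.61 and 6.63), with an interaction of 5.75 ± 0.38 (adjusted p = 0.0132). The alarmin IL33 rose at least 58.3-fold and the receptor IL7R at least 12.9-fold in 3D from levels near background, and CSF3 (G-CSF) had an interaction of 3.22 ± 0.34. IL1R1, the interleukin 1 receptor, fell from 9.64 and 9.54 to 7.81 and 7.48 in 3D and read 9.87 to 10.08 in 2D (interaction −1.82 ± 0.18, adjusted p = 0.0303). Any 1 array could be left out without ending the calls for NFKBIZ, TNFRSF1B, FAS, TNFRSF10B and IL11. IL33 missed the threshold without 2D control replicate 2, either 2D treated array or 3D control replicate 2 (0.0512 to 0.0598), CSF3 without any 1 of the 2D arrays (0.0608 to 0.0834), and IL7R and IL1R1 without any 1 of the 6 arrays other than the treated spheroids (0.0583 to 0.0778). With values below 4 set to 4, TNFRSF1B lay at 1.04 and IL7R at 2.13 (adjusted p = 4.8e-05 and 0.133). The median of the TNF superfamily list, 0.47, was 0.04 without 2D control replicate 1, and that of the interleukin list, 0.15, was 0.00 without 3D treated replicate 1.

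Interferon-stimulated genes encode antiviral proteins and are switched on by STAT and IRF factors. They formed the list with the most negative median, although 1 of 44 members was called (2.27%, beside 3.26% of all genes). The median interaction was −1.28, with 37 members below 0 and 5 above, and 18 had an unadjusted p under 0.05 (40.9%, beside 22.0% of all genes). The median response was 0.92 in 2D and 0.00 in 3D. Of the 44 members 2 rose and 4 fell in 3D, in a comparison where 5.53% of all genes rose and 10.8% fell. None of the members passed in 2D, where 0.121% of all genes rose and 0.0759% fell. Relative to the mean of the 2D control arrays, the list median was 0.19 and −0.19 on those arrays, 1.34 and 0.54 in 2D treated, 0.07 and 0.12 in 3D control and 0.00 and 0.00 in 3D treated cultures. Both pairs of 2D arrays were thus apart, and replicate 1 was the higher in each. On 2D treated replicate 1, 27 of 44 genes were at least 1 above the control mean, against 11 on replicate 2. On the treated spheroid arrays 10 and 8 genes were at least 1 above it and 8 and 7 at least 1 below, so members went both ways there. Leaving out 2D treated replicate 1 gave a list median of −0.57 and leaving out replicate 2 gave −1.58, so 1 array sets the size of this difference by more than 1.5 times. IFIT2, which binds viral RNA, was the called member: it read 7.44 and 7.36 against 8.83 and 8.44 in 2D and fell from 7.46 and 7.47 to 6.18 and 5.93 in 3D (interaction −2.65 ± 0.22, adjusted p = 0.0217, and 0.0533 without 2D control replicate 2). Its relative IFIT1 read 8.89 and 7.82 against 10.77 and 9.28 in 2D and 8.83 and 8.67 against 5.38 and 4.66 in 3D, and although the groups moved apart its interaction of −5.40 ± 0.95 did not pass (adjusted p = 0.0812). IFIT3, IFIT5, HERC6 and SAMD9 lay at −2.81, −1.78, −2.88 and −1.50 (adjusted p = 0.162, 0.0685, 0.123 and 0.0572). The nuclease gene ISG20 was the most positive member at 1.09 (adjusted p = 0.217). C1S, a complement protease whose gene is induced by interferon, was called on the complement list: it read 12.15 and 11.81 against 13.67 and 13.43 in 2D and 12.80 and 12.88 against 12.48 and 12.66 in 3D (interaction −1.84 ± 0.22, adjusted p = 0.0421). Its call ended without any 1 array except 2D control replicate 1 and 3D treated replicate 2 (0.0506 to 0.1). The interferon-stimulated response element (ISRE), searched on both strands and chosen after these values were seen, stood in 22 of 33 promoters of this list (66.7%), against 453 of all 15384 (2.94%), 4 of the 197 more positive genes (2.03%) and 9 of the 322 more negative genes (2.80%). Because the list holds genes known to be induced by interferon, its share describes the list and not culture dependence. The promoters of IFIT1 (chr10:89392373-89392672, plus strand) and IFIT3 (chr10:89327747-89328046, plus strand) are shown as examples, with matches in capitals that begin 116 and 103 bases before the start site of IFIT1 and 156 and 122 before that of IFIT3.
IFIT1: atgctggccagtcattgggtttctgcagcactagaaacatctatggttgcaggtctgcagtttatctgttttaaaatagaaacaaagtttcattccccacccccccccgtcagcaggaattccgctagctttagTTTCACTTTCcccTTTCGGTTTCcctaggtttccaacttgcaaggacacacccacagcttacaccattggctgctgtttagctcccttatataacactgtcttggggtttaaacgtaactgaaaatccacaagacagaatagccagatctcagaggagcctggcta
IFIT3: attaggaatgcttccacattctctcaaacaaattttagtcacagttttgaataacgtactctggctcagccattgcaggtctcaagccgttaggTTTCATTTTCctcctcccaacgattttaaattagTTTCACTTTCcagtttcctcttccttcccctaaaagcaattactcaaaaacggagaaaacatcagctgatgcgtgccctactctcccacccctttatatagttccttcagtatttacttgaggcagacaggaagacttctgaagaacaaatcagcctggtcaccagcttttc

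**Figure D4:**
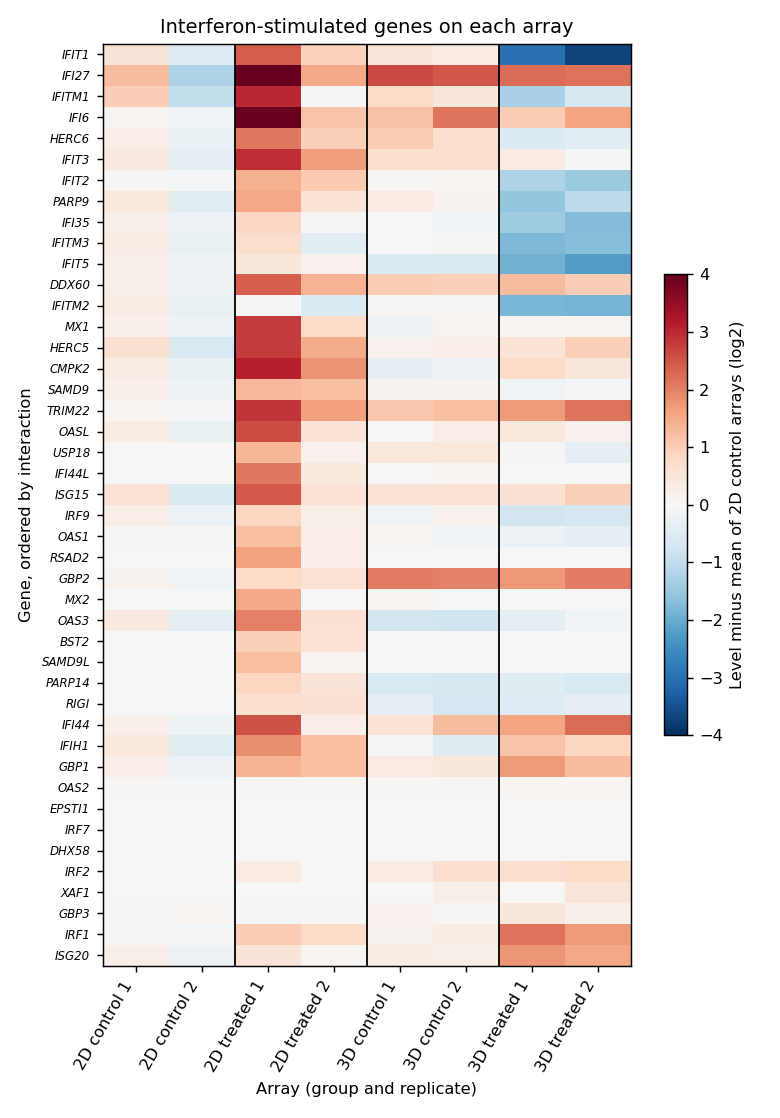
Level of 44 interferon-stimulated genes on each of the 8 arrays, as log2 difference from the mean of the 2D control arrays (colour scale, limited to 4 in either direction). Rows are ordered by interaction and columns by group and replicate. The column of 2D treated replicate 1 is the reddest, with a median of 1.34, against 0.54 for replicate 2 and 0.00 for both treated spheroid arrays.

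Every call among the genes of oxidative metabolism listed here was more negative in 3D, although most members did not pass. Of 25 peroxisomal and fatty acid oxidation genes, 5 were more negative and 0 more positive, in a comparison that called 3.26% of all genes. The list median was −0.74 with 21 members below 0, beside a median of −0.12 over the 12657 brighter genes. HADH, a mitochondrial β-oxidation enzyme, fell from 9.87 and 9.67 to 8.45 and 8.51 in 3D and read 9.85 and 9.73 against 9.65 and 9.66 in 2D (interaction −1.15 ± 0.12, adjusted p = 0.0312). PPARGC1A, the co-activator that drives mitochondrial genes, had an interaction of −2.47 ± 0.31 (adjusted p = 0.0454). The peroxisome assembly factor PEX19 lay at −1.04 ± 0.09, the peroxisomal enzymes ECH1 and HSD17B4 at −0.74 ± 0.06 and −0.63 ± 0.04. PEX11A lay at −1.52 (adjusted p = 0.0539), with a second probe set called at −1.85 (adjusted p = 0.0384), and catalase (CAT) at −0.94 (adjusted p = 0.132). Of 38 genes of the TCA cycle and respiratory chain, 4 were more negative (10.5%, beside 3.26% of all genes). In this list 34 lay below 0, with a median of −0.32. The 4 were the complex I subunits NDUFS3 (−0.74 ± 0.07), NDUFV1 (−0.55 ± 0.05) and NDUFA9 (−0.48 ± 0.05) and the ATP synthase subunit ATP5MC3 (−0.38 ± 0.05). Of 24 NRF2 targets and glutathione genes, 3 were more negative, where 3.26% of all genes were called. In this list 22 lay below 0, with a median of −0.52. NQO1, a quinone reductase, read 14.56 and 14.79 against 14.11 and 14.20 in 2D and fell from 14.30 and 14.38 to 12.41 and 12.64 in 3D (interaction −1.31 ± 0.17, adjusted p = 0.0468). The aldo-keto reductase AKR1B10 lay at −0.61 ± 0.06 and the sulfiredoxin SRXN1 at −0.82 ± 0.10. The aldehyde dehydrogenases ALDH3A1 and ALDH3A2 were the called members among 32 xenobiotic and alcohol metabolism genes, at −1.45 ± 0.12 and −1.50 ± 0.15, beside a list median of −0.64. The share called was 6.25%, beside 3.26% of all genes. ALDH3A1 read 14.92 and 15.09 against 14.47 and 14.60 in 2D and fell from 14.62 and 14.54 to 12.70 and 12.60 in 3D. HSD17B4, ECH1 and ALDH3A1 were called without any 1 array. PEX19 missed the threshold without 2D control replicate 2 (adjusted p = 0.0538), HADH without that array or either 2D treated array (0.064 to 0.079), NDUFV1 without either 2D treated array (0.0761 and 0.0666), and NDUFA9 and NDUFS3 without either 2D treated or either 3D control array (0.0539 to 0.0765). AKR1B10 missed it without 2D control replicate 2, 2D treated replicate 1 or either 3D control array (0.0545 to 0.0595), and PPARGC1A, ATP5MC3, NQO1, SRXN1 and ALDH3A2 without any 1 of the 6 arrays other than the treated spheroids (0.0535 to 0.114). With its probe set of largest interaction ATP5MC3 lay at −1.21 (adjusted p = 0.177). The xenobiotic median was −0.31 without 2D control replicate 2.

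Many hypoxia and glucose genes differed between the control cultures. Of 23 hypoxia response genes, 17 were higher in control spheroids than in control monolayers, in a comparison that called 10.7% of all genes, and the median gap was 1.71. Their median interaction was −0.01, with 1 gene more positive and 1 more negative (8.7% called, beside 3.26% of all genes). Of 19 glycolysis genes, 13 were higher in control spheroids, with a median gap of 0.89. In the interaction 2 were more positive, SLC2A1 and HK2 (10.5%, beside 3.26% of all genes), with a median of 0.02. VEGFA, the angiogenic growth factor, read 11.87 and 12.16 in 2D control, 12.54 and 12.54 in 2D treated, 13.12 and 13.14 in 3D control and 13.80 and 13.70 in 3D treated cultures, and its interaction was 0.10 (adjusted p = 0.922). Its other probe sets, above the median on all 8 arrays, lay at 0.95, 1.15 and 1.39 and did not pass either (adjusted p = 0.1 to 0.113). The value for VEGFA thus differs with the probe set. SLC2A1, the glucose transporter GLUT1, rose in 3D from 10.15 and 10.35 to 11.44 and 11.82 and read 8.41 and 8.62 against 7.21 and 7.59 in 2D (interaction 2.49 ± 0.29, adjusted p = 0.0407). HK2, which phosphorylates glucose, read 3.54 and 4.12 against 2.25 and 2.25 in 2D and 8.70 and 8.85 against 9.76 and 10.06 in 3D, with an interaction of 2.72 ± 0.32 (adjusted p = 0.0403) although neither response passed. The oxygen sensor EGLN1 fell in 3D (interaction −1.05 ± 0.11, adjusted p = 0.0323). Of 18 sterol synthesis and uptake genes, 2 were more positive (11.1%, beside 3.26% of all genes). In the list 16 lay above 0, with a median of 0.67 that was 0.42 without 3D treated replicate 2. SQLE (squalene epoxidase) was lower in control spheroids, at 10.83 and 10.72 against 12.13 and 12.32, and slightly higher in treated ones, at 12.41 and 12.36 against 11.28 and 11.77 (interaction 2.31 ± 0.26, adjusted p = 0.0376). STARD4, a cholesterol carrier, lay at 1.56 ± 0.18 (adjusted p = 0.0385) and INSIG1 at 1.99 (adjusted p = 0.0807). None of these 5 calls held without each array. SLC2A1 missed the threshold without any 1 of the 6 arrays other than the treated spheroids (0.0549 to 0.096), HK2 without either 2D treated array, either 3D control array or 3D treated replicate 2 (0.0552 to 0.102), EGLN1 without any 1 of the control arrays (0.0511 to 0.0762), SQLE without any of these or 3D treated replicate 2 (0.0537 to 0.0886) and STARD4 without any 1 of the 2D arrays or 3D control replicate 2 (0.056 to 0.0948). With values below 4 set to 4, HK2 lay at 1.20 (adjusted p = 0.093), and with its probe set of largest interaction SQLE lay at 4.23.

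Other genes with wide differences belong to no single group. LCE3D, a cornified envelope protein of skin, was near background on the 6 other arrays and read 12.86 and 11.40 in treated spheroids, at least 828-fold above control spheroids, which is the most positive called interaction (9.81 ± 0.70, adjusted p = 0.0152). The neuropeptide gene GAL read 2.82 to 3.07 elsewhere and 11.03 and 10.18 there (interaction 7.86 ± 0.42, adjusted p = 0.00842). PPP1R14C, a phosphatase inhibitor, had an interaction of 7.32 ± 0.36 and the immune receptor gene SLAMF9 of 6.15 ± 0.55. At the other end, SLC51B, a subunit of the bile acid and steroid exporter, fell in 3D from 8.85 and 8.95 to 3.93 and 3.62 and read 8.91 and 9.21 against 8.10 and 8.57 in 2D (interaction −4.40 ± 0.31, adjusted p = 0.0142). FGA, the fibrinogen α chain, was higher in control spheroids (8.40 and 8.70 against 6.78 and 6.49) and lower in treated ones (4.58 and 4.47 against 6.41 and 6.27), with an interaction of −3.73 ± 0.22 (adjusted p = 0.00989). The potassium channel subunit KCNE3 lay at −3.58 ± 0.32, the mTOR inhibitor DEPTOR at −3.27 ± 0.27, TMC5 at −3.24 ± 0.34, the steroid enzyme AKR1C4 at −3.22 ± 0.31, CRACDL at −2.95 ± 0.34, the organic anion transporter SLCO2B1 at −2.90 ± 0.28, PRR15L at −2.78 ± 0.36 and the actin binder SYNPO2 at −2.73 ± 0.27. RNF43, a ubiquitin ligase that removes Wnt receptors, fell from 9.23 and 9.18 to 5.99 and 6.01 in 3D (interaction −2.46 ± 0.14, adjusted p = 0.00943). CEBPD, an inflammatory transcription factor, lay at −1.95 ± 0.16 and coagulation factor F5 at −0.82 ± 0.08. SMIM2-AS1, an antisense RNA gene, was higher in control spheroids alone, at 6.28 and 6.25 against 2.65 to 3.31 on all other arrays (interaction −3.28 ± 0.32, adjusted p = 0.0287). LCE3D, GAL, PPP1R14C, SLC51B, FGA, DEPTOR and RNF43 were called without any 1 array. CEBPD missed the threshold without 2D treated replicate 1 (0.0537), KCNE3 without that array or either 3D control array (0.0527 to 0.0537), SMIM2-AS1 and SYNPO2 without either 2D treated or either 3D control array (0.0548 to 0.0751), and F5 without any 1 of the 2D arrays (0.0532 to 0.0708). TMC5 missed it without any 1 of the 2D arrays or 3D control replicate 2 (0.0548 to 0.0838), AKR1C4 without 2D control replicate 2, either 2D treated array or 3D control replicate 1 (0.0516 to 0.0708), and SLAMF9 without 2D control replicate 2, either 2D treated or either 3D control array (0.0518 to 0.0651). CRACDL missed it without any 1 of the control arrays or 3D treated replicate 2 (0.0601 to 0.0901), SLCO2B1 without any 1 of the control arrays or 2D treated replicate 2 (0.0504 to 0.0693) and PRR15L without any 1 of the 6 arrays other than the treated spheroids (0.0804 to 0.119). With values below 4 set to 4, CRACDL lay at −1.78 (adjusted p = 0.139), and with its probe set of largest interaction CEBPD lay at −3.50.

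A small set responded in monolayers and not past the threshold in spheroids. Of the more negative genes, 8 rose in 2D alone. LINC00488, a long non-coding RNA, read 2.32 and 2.36 against 4.64 and 4.54 in 2D and 2.26 to 2.31 on all 3D arrays, at least 4.40-fold up in 2D (interaction −2.25 ± 0.06, adjusted p = 0.00177). CALCB, a calcitonin gene related peptide, read 3.73 and 3.81 in 2D treated cultures and 2.24 elsewhere, at least 2.49-fold up. The pseudogene POM121L9P read 4.2 and 4.13 there and 2.23 to 2.49 elsewhere. These 3 sit close to background, and with values below 4 set to 4 the interactions were −0.59 for LINC00488, 0.00 for CALCB and −0.16 for POM121L9P (adjusted p = 0.0373, 0.72 and 0.162). PDGFRL, a PDGF receptor-like protein, rose in 2D from 9.10 and 9.08 to 10.19 and 10.11 and read 9.30 to 9.47 in 3D (interaction −1.16 ± 0.08, adjusted p = 0.0133). CSGALNACT1, which starts chondroitin chains, lay at −0.55 ± 0.05. Of the more positive genes, 6 fell in 2D alone. PDE3A, a cyclic nucleotide phosphodiesterase, read 4.75 and 4.85 in 2D control cultures and 2.41 to 2.43 on all others, at least 5.15-fold down in 2D (interaction 2.38 ± 0.05, adjusted p = 0.000749), and 0.80 (adjusted p = 0.0242) with values below 4 set to 4. PLEKHG2 and the ubiquitin activating enzyme UBA1 lay at 0.63 ± 0.03 and 0.43 ± 0.03. Genes that passed in both cultures differed in degree: BMAL2, BTG3, DSE and TNFRSF10B rose more in 3D, RAB9A and STK17A rose less, ASRGL1, MRAP2 and MUC13 fell more and EZR fell less. BMAL2, a circadian clock factor, read 4.85 and 4.73 against 7.34 and 7.14 in 2D and 4.68 and 4.97 against 9.67 and 9.38 in 3D (interaction 2.26 ± 0.23, adjusted p = 0.0312). DSE, which modifies dermatan sulfate, lay at 1.43 ± 0.13, BTG3 at 0.75 ± 0.08, MRAP2 at −1.40 ± 0.15, the mucin MUC13 at −1.23 ± 0.05, ASRGL1 at −0.80 ± 0.04, RAB9A at −0.37 ± 0.05, STK17A at −0.21 ± 0.03 and the membrane linker EZR at 0.23 ± 0.02. PTGES3, a co-chaperone, was the only gene called in opposite directions, from 13.75 and 13.75 to 13.84 and 13.84 in 2D and from 13.96 and 13.96 to 13.80 and 13.81 in 3D, a difference of −0.24 ± 0.01 (adjusted p = 0.00114) that rests on nearly identical pairs. CALCB, LINC00488, POM121L9P, PDGFRL, PDE3A, PLEKHG2, UBA1, ASRGL1, MUC13 and PTGES3 were called without any 1 array. CSGALNACT1 missed the threshold without 2D treated replicate 1 (0.0588), EZR without either 3D control array (0.0579 and 0.0569), BMAL2 without any 1 of the 2D arrays (0.0602 to 0.0674), DSE without 2D control replicate 2, either 2D treated array or 3D control replicate 2 (0.0515 to 0.0584) and MRAP2 without any 1 of the 6 arrays other than the treated spheroids (0.0526 to 0.0789). STK17A, RAB9A and BTG3 each missed it without 6 of the 8 arrays (0.053 to 0.111): 3D treated replicate 1 could be left out of each, with 2D treated replicate 1 for STK17A, 2D treated replicate 2 for RAB9A and 2D control replicate 2 for BTG3.

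Probe sets of 1 gene did not always give the same answer. The called genes that the naming rule covers, printed above or not, and those named after their values were seen were read for this. Of these, 53 had another probe set above the median on all 8 arrays. For 20 of them such a probe set was not called and had an interaction more than 1.5 times smaller or of opposite sign. The widest of these differences were in SYNPO2 (−0.39 beside −2.73), KCNE3 (−0.73 beside −3.58), SLCO2B1 (−1.02 beside −2.90) and IFIT2 (−0.38 beside −2.65). ZEB1 lay at 0.61 and 0.66 beside 1.08, LTBP3 at 0.22 and 0.33 beside 0.78, KLF5 at −0.54 beside −1.02, KLF7 at 0.57 beside 1.55 and TGFB2 at −0.43 beside −0.99. EGLN1 lay at −0.62 and 0.00 beside −1.05, HADH at −0.74 beside −1.15, ASRGL1 at −0.11 beside −0.80, PLEKHG2 at 0.01 beside 0.63 and EZR at 0.13 and 0.11 beside 0.23. The sign was opposite for BTG3 (−0.86 beside 0.75) and NDUFV1 (0.16 beside −0.55). It was also opposite for DNAJC3 (−0.13, −0.40 and −0.19 beside 0.46) and EHMT2 (0.14 beside −0.98), which are not printed above. KCNE3 had a further probe set that was called, at −2.45 (adjusted p = 0.0461). In the other direction, 5 genes whose brightest probe set did not pass had another that was called: COL1A1, COL7A1, PEX11A, SKIL and TNFAIP3.

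The same called genes can be read as gaps between the cultures, which share arrays with the responses. Between treated cultures 23.6% of all genes differed, against 10.7% between control cultures. Of the 261 more positive genes, 187 differed between treated cultures alone, 31 were higher in spheroids both before and after treatment, 22 turned from lower to higher in spheroids, 16 were lower in control spheroids and did not pass after treatment, and 5 were lower in both. IL11, PLAU, HES1, SQLE, PALLD, KRT80, MAFG, DSE and IER2 were among the 22, and MMP1, SNAI2, JUN, HK2 and SLC2A1 among the 31. Of the 384 more negative genes, 207 differed between treated cultures alone, 64 were lower in spheroids before and after, 42 turned from higher to lower, 60 were higher in control spheroids and did not pass after treatment, and 11 were higher in both. FGA, KLF5 and PEX19 were among the 42, INHBB, PDGFD and HSD17B4 among the 64, and SMIM2-AS1 and IGFBP1 among the 60.

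**Figure D5:**
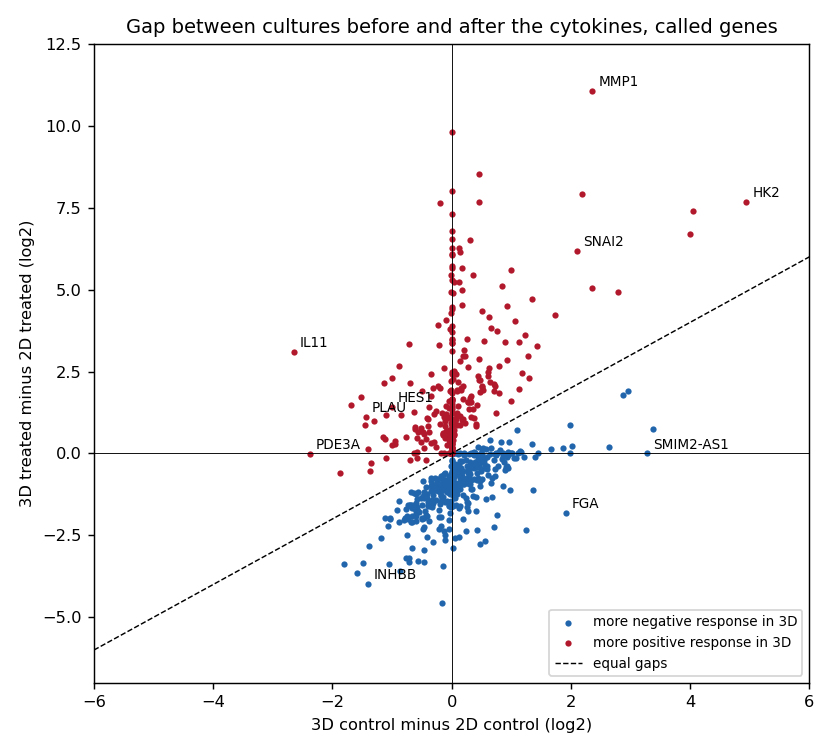
Gap between spheroids and monolayers in control cultures (x axis) and in treated cultures (y axis), on the log2 scale, for the 645 called genes. Red points are the 261 genes with a more positive and blue the 384 with a more negative 3D response. Points in the upper left, such as IL11, turned from lower to higher in spheroids, and those in the lower right, such as FGA, from higher to lower.

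The lists on growth held 2 calls. None of 38 mitosis genes and none of 18 cyclins and CDK inhibitors passed in the interaction with limma. Of these, 2 and 8 had an unadjusted p under 0.05 (5.26% and 44.4%, beside 22.0% of all genes). Of 36 DNA replication genes, 2 were more negative, PCNA and POLA1 (5.56%, beside 3.26% of all genes), with a list median of −0.10 that was −0.19 without 3D treated replicate 1. None of 11 housekeeping genes passed, with 3 at an unadjusted p under 0.05 (27.3%, beside 22.0% of all genes). Their interactions ran from −0.39 to 0.24. The median of −0.14 moved between −0.25 without 3D treated replicate 2 and −0.02 without replicate 1. The mitosis median was −0.19, and it moved to −0.51 without 2D treated replicate 1 and to 0.00 without replicate 2.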

How the data were processed

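A549 RNA was measured on 8 Affymetrix U133 plus 2.0 arrays, 2 per group. The authors corrected background with GCRMA and deposited log2 values, and the submitters' processing notes name limma 3.6.9. Groups follow the labels. The members and gene lists were chosen with earlier results of these data known. All 54613 probe sets other than 62 controls entered 1 linear model (limma 3.58.1, R 4.3.3), with 1 mean per group and a shared spread (4 residual and 0.347 prior degrees of freedom), and p-values were adjusted by Benjamini-Hochberg over all of them, with a threshold of 0.05. A gene was read from the named probe set with the highest mean over 8 arrays. Of the probe sets, 41091 had 1 gene, 1801 several and 11721 none. A fold against a group near background is a bound against the array medians. Precision is limited by having 2 arrays per group.

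Of 53 lists, each is described by its counts and median. Genes named in the text are the 12 most positive and 12 most negative called interactions, up to 4 called members of each list and genes the study discusses, and 43 others named after their values were seen. The interferon motif was added after seeing the data. Values were summarised with Python 3.11.15 and drawn with matplotlib 3.10.9, and the fit was tested on simulated data. Alternatives were the replicate number as a block, an intensity trend, quantile normalization, centring, filters on dim or identical probe sets, values below 4 set to 4, ordinary t statistics, another adjustment or probe set, a 2-fold minimum and each array left out, where the lone array was given the spread pooled over the rest. For a gene near background in the other groups that spread is small, so a call kept without a treated spheroid array says little.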

Additional observations from a re-analysis of the deposited data

Results flagged for a closer look

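The test of the difference between both responses passed for 645 genes, of which 109 are named above. Their interactions, on the log2 scale with limma, are given here as values. More positive in 3D were LCE3D 9.81, MMP1 8.70, MMP9 8.09, INHBA 8.01, GAL 7.86, PPP1R14C 7.32, MAF 7.21, PDGFB 6.79, FST 6.55, MMP3 6.28, SPOCK1 6.21, SLAMF9 6.15, IL33 6.05, IL11 5.75, TIMP3 5.73, MMP12 5.30, BMP6 5.11, SNAI2 4.07, IL7R 3.89, ZEB2 3.83, COL15A1 3.71, F3 3.36, CSF3 3.22, KLF6 3.13, HK2 2.72, PLAU 2.55, SLC2A1 2.49, HES1 2.42, JUN 2.38, PDE3A 2.38, SQLE 2.31, SERPINE2 2.27, BMAL2 2.26, TGFBR1 2.21, TNFRSF1B 1.93, SDC4 1.87, SPRY2 1.78, STARD4 1.56, KLF7 1.55, DSE 1.43, NFKBIZ 1.40, FAS 1.40, PALLD 1.28, KRT15 1.27, KRT80 1.22, MAFG 1.13, ZEB1 1.08, IER2 1.04, AMOTL2 0.84, LTBP3 0.78, BTG3 0.75, TNFRSF10B 0.69, PLEKHG2 0.63, UBA1 0.43, EZR 0.23, PRRX1 0.07.

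More negative in 3D were SLC51B −4.40, FGA −3.73, KCNE3 −3.58, SMIM2-AS1 −3.28, DEPTOR −3.27, TMC5 −3.24, AKR1C4 −3.22, CRACDL −2.95, SLCO2B1 −2.90, FGFR3 −2.85, PRR15L −2.78, SYNPO2 −2.73, IFIT2 −2.65, INHBB −2.58, PPARGC1A −2.47, RNF43 −2.46, LINC00488 −2.25, CEBPD −1.95, PDGFD −1.85, C1S −1.84, IL1R1 −1.82, ERBB2 −1.78, POM121L9P −1.75, ERBB3 −1.62, CALCB −1.53, ALDH3A2 −1.50, MMP24 −1.45, ALDH3A1 −1.45, MRAP2 −1.40, IGFBP1 −1.33, NQO1 −1.31, MUC13 −1.23, PDGFRL −1.16, HADH −1.15, OCLN −1.10, EGLN1 −1.05, PEX19 −1.04, KLF5 −1.02, TGFB2 −0.99, SRXN1 −0.82, F5 −0.82, ASRGL1 −0.80, ECH1 −0.74, NDUFS3 −0.74, HSD17B4 −0.63, AKR1B10 −0.61, NDUFV1 −0.55, CSGALNACT1 −0.55, NDUFA9 −0.48, ATP5MC3 −0.38, RAB9A −0.37, PTGES3 −0.24, STK17A −0.21.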

How the results depend on the processing

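The 645 interaction calls (261 more positive, 384 more negative) were 226 (105, 121) with the replicate block, 1429 (420, 1009) with arrays centred, 2115 (741, 1374) without dim probe sets, 258 (118, 140) with values below 4 set to 4, 2068 (696, 1372) without probe sets identical in a group, 310 (142, 168) with ordinary t statistics, 1083 (430, 653) when adjusted over 1 probe set per gene and 380 (195 more negative) at 2-fold or more. Leaving out 1 array gave 557 to 2262 calls, 178 to 1399 more positive and 270 to 863 more negative. The block kept 192 of the 645 genes and leaving out 1 array 289 to 587, all in the same direction. The correlation of same-numbered arrays' deviations was 0.283 between the 2D groups and −0.0148 to 0.0899 otherwise, so the numbers are not shown to pair the arrays.

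The 3235 calls of the 3D response were 2100 with the block, 4961 without dim probe sets, 1608 at 2-fold or more and 1719 to 3715 with 1 array left out. The 39 calls in 2D were 14, 233, 17 and 14 to 472 under the same settings, 109 with arrays centred and 298 without identical probe sets. Between control cultures the 2110 calls were 902, 3970, 869 and 1022 to 1383, with 1323 under the floor of 4, 4021 without identical probe sets and 1331 with ordinary t statistics. Between treated cultures the 4667 calls were 2444 at 2-fold or more and 2636 to 4910 with 1 array left out. The correlation of both responses was 0.437 under the floor of 4. The cause was not tested. Of the 109 named calls, 43 held without each array, 40 with the block and 51 under the floor of 4, and none of these settings reversed one. Of the 43, the block ended 11 (ALDH3A1, DEPTOR, ERBB3, IER2, IL11, INHBA, JUN, MMP24, OCLN, SLC51B and TGFBR1, adjusted p = 0.0505 to 0.0666) and the floor of 4 ended 4 (CALCB, INHBA, POM121L9P and ZEB2, 0.0512 to 0.72).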
